A study of Mus musculus with 48 samples.

Results

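The second week after birth was examined in astrocytes of the mouse hippocampus by setting 3 RNA-seq libraries from postnatal day 14 (P14) against 3 from postnatal day 7 (P7). These 6 libraries were taken by their column names in the table of hippocampus development, out of 48 libraries in the whole series. The series profiles astrocytes of cortex, hippocampus and olfactory bulb at P1, P7 and P14, and at P28 in animals with and without astrocyte Gabbr1, the gene of a GABA-B receptor subunit. For the P7 and P14 hippocampus groups the labels give the tissue, the cell type (astrocyte) and the age. Genotype, strain, sex and treatment are not given in the sources used here, nor is the reporter or marker by which astrocytes were separated from the dissociated tissue. Both groups share the same dissociation and the same low-input library kit. A further group of 3 hippocampus libraries, from P1, entered the estimate of spread and is cited as a description. No label says that the libraries come from separate animals, so the p-values measure the spread between these libraries, which may be technical.

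Astrocytes are the glial cells that surround synapses and vessels. They clear glutamate and GABA after release, take up the potassium that active neurons shed, pass water and ions through endfeet on vessels, and supply neurons with lactate, lipids and glutamine. In the rodent hippocampus the second postnatal week is when dividing, radial-glia-derived precursors become highly branched astrocytes coupled by gap junctions. GABA-B receptors are pairs of the Gabbr1 and Gabbr2 proteins that signal through G proteins, and astrocytes carry them.

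Values are a normalized signal: reads of a gene divided by 1 factor per library, not corrected for gene length. Changes are log2 differences (P14 minus P7) of signal + 1 with their standard error (SE), from limma, and a gene was called at a Benjamini-Hochberg adjusted p under 0.05. Of 11578 genes with a mean signal of at least 10, 3489 were called (30.1%), 1443 higher at P14 (12.5%) and 2046 lower (17.7%), and the median change of all genes tested was -0.19. On the reads recovered from the signal, edgeR called 3304 genes, 1621 higher and 1683 lower. The split followed the level. Among genes with a mean of at least 1000, 196 were higher and 42 lower, while between 10 and 100 the counts were 264 and 1280, and testing genes with a mean of at least 100 alone gave 1224 higher and 843 lower. The P14 libraries held 2539583 to 4248087 reads against 4002881 to 5542610 at P7, and 12301 to 12433 genes with a read against 15565 to 16685. At an equal depth of 2005658 reads the ranges were 11962 to 12432 and 15183 to 15812. Replicates were also less alike at P14, with correlations over genes of 0.841 to 0.859 against 0.946 to 0.972, and a biological coefficient of variation of 54.4% against 19.8%. After quantile normalization, which gives every library the same distribution, the median change of all genes was 0.03, and of 161 called genes followed through the alternatives 21 lost their call and 3 changed sign. The part of this difference between libraries in the falls of low genes was not tested, and low P14 values rest on few reads.

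**Figure D1:**
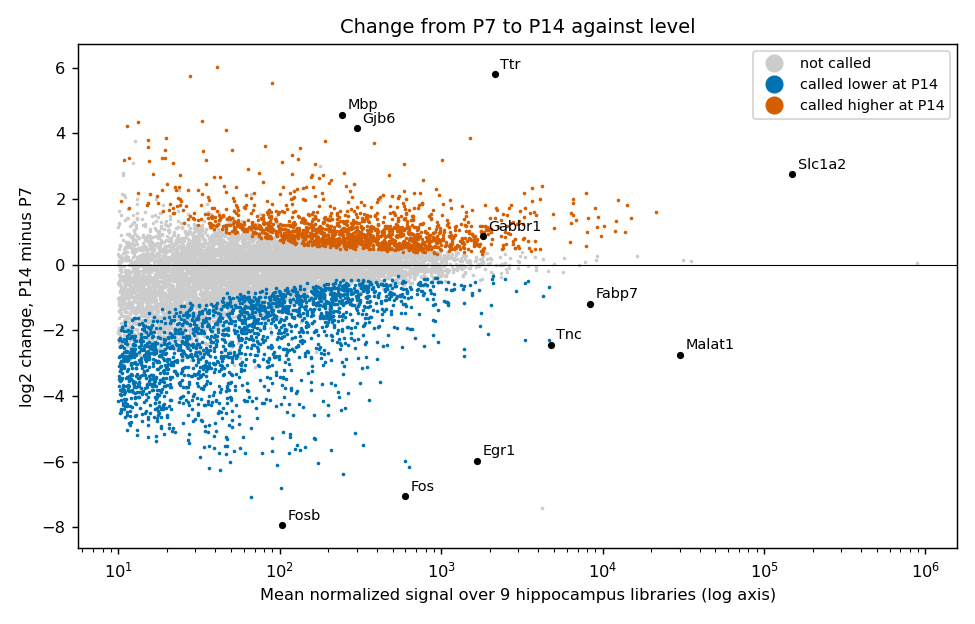
Log2 change from P7 to P14 (vertical axis, log2 of normalized signal + 1) against the mean signal over the 9 hippocampus libraries (horizontal log axis), 1 point per gene tested, coloured by call. Of the genes with a mean of at least 1000, 196 were called higher and 42 lower, and the falls gather at low means.

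Genes that define astrocytes rose. Of 16 astrocyte markers, all tested, 15 were called higher at P14 and none lower, with a median change of 1.67 against -0.19 over all genes. After quantile normalization 10 were higher, with a median of 0.56. Slc1a2, the main glutamate transporter (GLT-1), had a signal of 55716, 45805 and 71420.4 in the P7 libraries and 362867, 399091 and 388523 at P14 (log2 change 2.76 ± 0.17 (SE), adjusted p = 4.80e-06). The P14 values lay more than 5-fold above each P7 value, P1 was lower again at 5923, 7599 and 6228, and quantile normalization ended the call without changing its direction. Glul, glutamine synthetase, which converts the captured glutamate, went from 3994, 3565 and 4925 to 18562, 17816 and 19717 (log2 change 2.18 ± 0.17 (SE), adjusted p = 1.33e-05). Slc1a3, the second astrocyte glutamate transporter, went from 12032, 11275 and 13969 to 24643, 24341 and 24841, a log2 change of 0.99 that turned to -0.040 and was not called after quantile normalization. Slc1a4, a transporter of serine and other neutral amino acids, moved the other way, from 1298, 1370.1 and 1355 to 820.1, 644 and 521 (log2 change -1.04 ± 0.16 (SE), adjusted p = 0.000760). In the glutamate and glutamine list 4 of 10 tested members (of 11) were higher and 1 lower, or 1 and 1 after quantile normalization. The marker that did not pass was Gfap, the astrocyte intermediate filament, with 913, 1661 and 1656 at P7 and 1351, 1111 and 1238 at P14 (log2 change -0.14, adjusted p = 0.692), and its age groups overlapped. The P7 and P14 values of the other genes given here did not.

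The genes of potassium uptake and of the sodium pump went in both directions. Of 15 tested members of a list of 16, 7 were higher and 5 lower, a called share of 80% against 30.1% of all genes. Kcnj10, the inward rectifier channel Kir4.1 that sets the astrocyte membrane potential, had 1936, 1677 and 2151 at P7 and 9889, 10462 and 10097 at P14 (log2 change 2.41 ± 0.14 (SE), adjusted p = 4.80e-06). Its partner Kcnj16 (Kir5.1) rose by 2.19 and Kcnk1, a 2-pore-domain leak channel (TWIK-1), by 3.07, from 57.4, 33.8 and 42.6 to 302, 522 and 331. Atp1b2, a glial sodium pump subunit, rose by 1.88. Kcnk10 (TREK-2) fell from 35.6, 35.0 and 40.7 to 5.37, 4.41 and 1.79 (log2 change -3.05 ± 0.43 (SE), adjusted p = 0.000409). Kcnj2 (Kir2.1), a channel also made by endothelial cells, had 56.8, 31.3 and 29.3 at P7 and no read in the 3 P14 libraries, at least 7.28-fold lower against a floor of 3 reads per library. With 6.41, 8.91 and 4.92 at P1, Kcnj2 reached the minimum mean through P7, so its direction was fixed in advance. Endothelial markers were also lower at P14, as given with the other cell types, and their part in the Kcnj2 value was not tested.

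Gap junctions and endfeet followed the markers. Gjb6, the connexin 30 gene, had 48.9, 35.7 and 53.9 at P7 and 599, 939 and 1014 at P14 (log2 change 4.16 ± 0.48 (SE), adjusted p = 0.000111), the largest log2 change among the 16 astrocyte markers. Gja1, connexin 43, rose by 1.17. Of the 10 endfoot genes, 7 were higher and 1 lower (4 and 1 after quantile normalization). Aqp4, the water channel of the endfoot, went from 6668, 7922 and 8779 to 15722, 14962 and 15949.8, a log2 change of 1.01 that turned to -0.083 and was not called after quantile normalization. Mlc1 and Hepacam, which encode partner proteins of astrocyte junctions, rose by 1.16 and 1.10, and Slc4a4, a sodium bicarbonate cotransporter, by 1.46. The lower member was Agrn, the matrix proteoglycan agrin, with 592, 695 and 682 and then 293, 307 and 319 (log2 change -1.09 ± 0.13 (SE), adjusted p = 0.000135). Among 15 tested receptor genes of 21, 3 were higher (20%, against 12.5% of all genes) and none lower. Ntsr2, a neurotensin receptor found in astrocytes, rose from 171, 197 and 193 to 1419.9, 1578 and 1680.4 (log2 change 3.05 ± 0.24 (SE), adjusted p = 1.33e-05), and Adk, the kinase that removes adenosine, by 2.39.

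**Figure D2:**
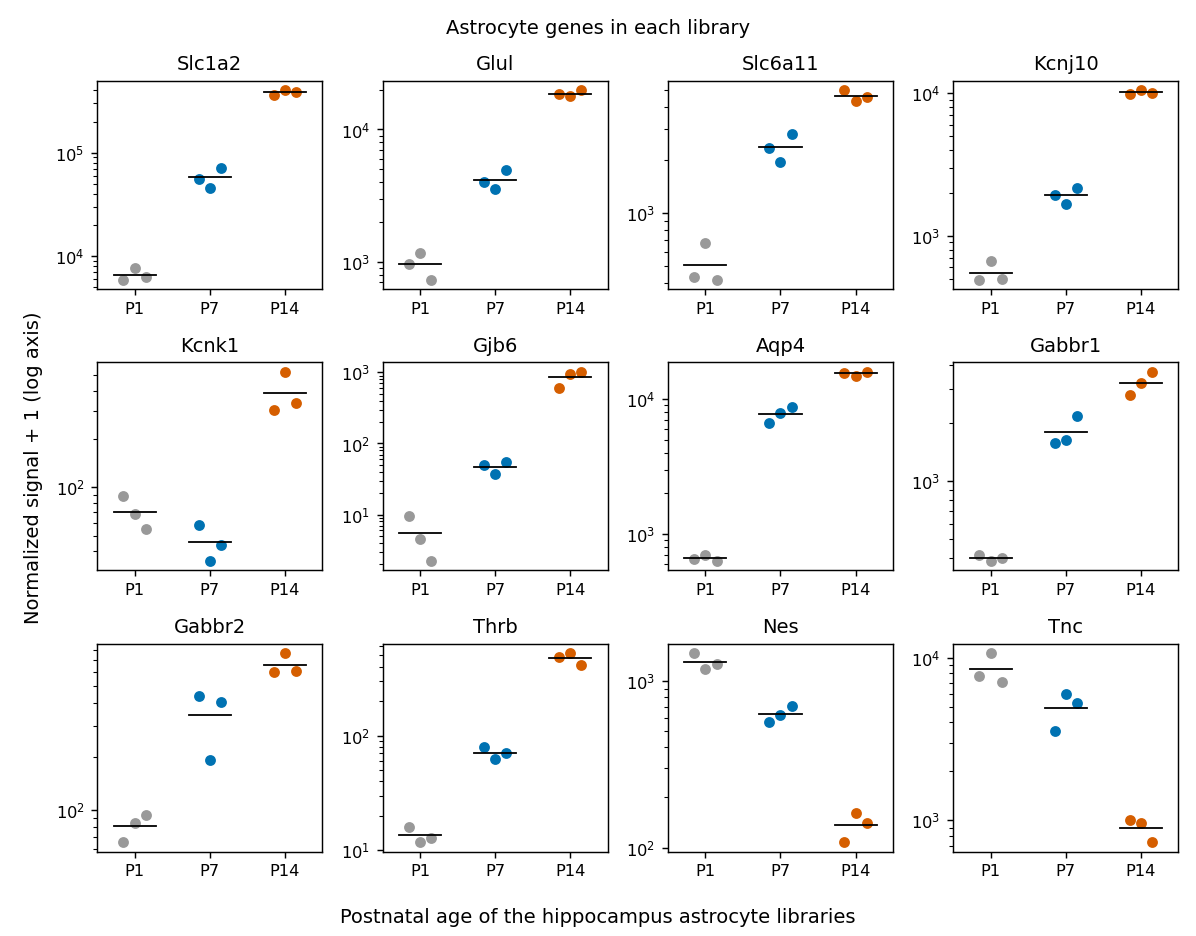
Normalized signal + 1 (log axis) of 12 genes in each hippocampus library at P1, P7 and P14, with 1 point per library and a bar at the mean of 3 libraries. For Slc1a2, Glul, Slc6a11, Kcnj10, Kcnk1, Gjb6, Aqp4, Gabbr1, Gabbr2 and Thrb every P14 point lies above every P7 point, and for Nes and Tnc every P14 point lies below.

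Both GABA-B receptor subunits rose. Gabbr1 had 1572, 1625 and 2181 at P7 and 2797, 3224 and 3679.8 at P14 (log2 change 0.86 ± 0.15 (SE), adjusted p = 0.00134), up from 413, 384 and 396 at P1. Gabbr2 had 439.6, 191 and 404 and then 599, 766 and 606 (log2 change 1.01 ± 0.29 (SE), adjusted p = 0.0209). The P14 libraries lay above the P7 libraries for both genes. The Gabbr2 call was lost in 5 of 21 alternative analyses, among them those without P7 replicate 2 and without P14 replicate 2, and quantile normalization ended both calls. Of the auxiliary subunits, 2 were not called and 2 did not reach the minimum mean.

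GABA-A receptor subunits, which form chloride channels, went in both directions. Of 11 tested members of 12, 4 were higher and 6 lower. Gabrg1, a gamma subunit typical of glia, went from 409, 418 and 481 to 1046, 1125 and 1093 (log2 change 1.32 ± 0.18 (SE), adjusted p = 0.000355). Gabra2, Gabra4 and Gabrb1 rose by 0.94, 0.72 and 0.87. Gabra5, an alpha subunit prominent in the hippocampus, fell from 45.9, 93.8 and 173 to 16.1, 0 and 16.1 (log2 change -3.79 ± 0.96 (SE), adjusted p = 0.0117), with a wide spread among the P7 libraries, and its call was lost without P7 replicate 3. Without P7 replicate 3 the lower count was 2, and without P7 replicate 2 the higher count was 2. Neuron markers were also lower at P14, and their part in the falling subunits was not tested.

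All 8 genes of GABA uptake and breakdown were called, 5 higher and 3 lower. Slc6a11, the astrocyte GABA transporter GAT-3, rose from 2322, 1933 and 2799 to 4961, 4313 and 4558 (log2 change 0.99 ± 0.19 (SE), adjusted p = 0.00244), a call that quantile normalization ended. Abat and Aldh5a1, which break GABA down to succinate, rose by 1.85 and 1.65, and Maob, monoamine oxidase B, by 2.34. The lower members were the GABA-synthesizing enzymes Gad1 and Gad2, both neuron markers, and Slc6a13 (GAT-2), a transporter of the meninges and vessels, with 21.1, 22.5 and 12.3 at P7 and 0, 0 and 3.58 at P14, a call that ended after quantile normalization. Of the metabotropic glutamate receptors, Grm3 went from 2323, 1960.0 and 2795 to 4073, 4409 and 4257 (log2 change 0.86 ± 0.14 (SE), adjusted p = 0.000977), also not called after quantile normalization. Grm5, the receptor prominent in young astrocytes, was 1072, 1027 and 1256 at P7 and 884, 1169 and 933 at P14 and was not called (adjusted p = 0.451), with overlapping ages, though after quantile normalization it was called lower (-0.56).

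Most genes of energy metabolism were higher, while no ribosomal protein gene was called. Of 22 nuclear genes of the respiratory chain, 19 were higher and none lower (median 1.02). Cyc1, cytochrome c1, went from 126, 117 and 119 to 275, 284 and 296 (log2 change 1.23 ± 0.19 (SE), adjusted p = 0.000757), Sdha of complex II from 367, 439 and 473 to 832, 944 and 887 and Atp5b of ATP synthase from 1045, 1056 and 1151 to 1948, 2035 and 2703. Of 20 tested genes of glycolysis, lactate and glycogen (of 22), 15 were higher and none lower (median 0.99), or 13 and 1 after quantile normalization. With a pseudocount of 8, a minimum mean of 100 or without P14 replicate 3, 1 was also called lower. A 2-fold requirement left 8 higher. Aldoc, the astrocyte aldolase, went from 2942, 3339 and 4794 to 14176, 13304 and 15960.5 (log2 change 2.00 ± 0.16 (SE), adjusted p = 1.93e-05). Pygm, a glycogen phosphorylase of muscle and astrocytes, went from 7.25, 6.88 and 12.3 to 76.3, 126 and 64.5 (log2 change 3.18 ± 0.53 (SE), adjusted p = 0.00118), and Ldhb, a lactate dehydrogenase subunit, rose by 1.42. For 24 ribosomal protein genes the counts were 0 higher and 0 lower by limma at the adjusted threshold, with changes from -0.36 to 0.31 and a median of -0.13. None of these had an unadjusted p under 0.05 by limma, and edgeR also called none, while quantile normalization gave 5 lower. For 5 of the 24 every P14 library lay below every P7 library, and for 0 above. Among all 11578 genes the counts were 2725 below and 2051 above. Respiratory chain genes were higher in 16 of 22 under quantile normalization.

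Cholesterol and lipoprotein genes were higher in part. Of 19 tested cholesterol synthesis genes of 20, 9 were higher and none lower (median 0.60), and 3 were called higher after quantile normalization. Hmgcs1, which makes the first committed precursor of the pathway, went from 4230.5, 3513 and 4299 to 9871, 7659.7 and 8829 (log2 change 1.13 ± 0.12 (SE), adjusted p = 7.61e-05), and Sc5d from 504, 403 and 498 to 1189.8, 1144 and 1069.5. Apoe, the carrier of astrocyte cholesterol, had 5109, 4893 and 6439.5 and then 13482, 11409.5 and 14529 (log2 change 1.26 ± 0.14 (SE), adjusted p = 8.15e-05), and Clu, clusterin, rose by 1.63. Fabp7, the brain fatty acid binding protein of radial glia, fell from 10878, 11347 and 14868 to 4837, 5546 and 5792 (log2 change -1.19 ± 0.14 (SE), adjusted p = 0.000116). In all, the lipid export list had 5 of 12 higher and 3 lower, or 1 lower without P7 replicate 2 and 5 without P14 replicate 2, and its median went from 0.14 to -0.32 with quantile normalization. The calls of Hmgcs1 and Apoe ended after quantile normalization, and the P7 and P14 values of the 4 genes given by library did not overlap. Of 10 genes of serine and glycine metabolism 4 were higher (40%, against 12.5% of all genes), led by Psat1, a serine synthesis enzyme, at 1.10.

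**Figure D3:**
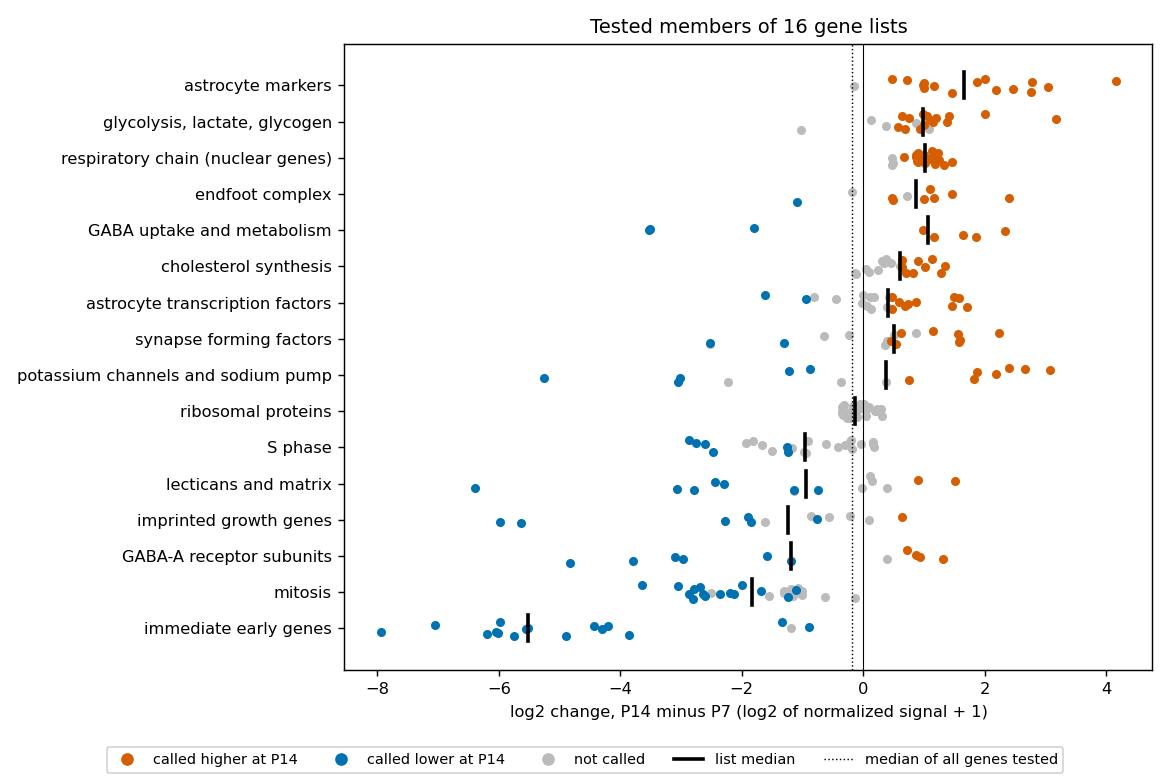
Log2 change from P7 to P14 (horizontal axis) of each tested member of 16 gene lists, coloured by call, with a bar at the list median and a dotted line at the median of all genes tested (-0.19). Respiratory chain genes gather at 0.47 to 1.46, ribosomal protein genes around the dotted line, and every immediate early gene to its left. The place of genes without reads at P14 depends on the added 1.

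Transcription factors of the astrocyte lineage were mostly higher or not called. Of 22, 10 were higher and 2 lower (median 0.41), with 5 and 4 after quantile normalization, where the median was -0.05. Rorb, a nuclear receptor, went from 1301, 1509 and 1517 to 4334, 4851 and 5018 (log2 change 1.71 ± 0.14 (SE), adjusted p = 1.71e-05). Nfic went from 225, 219.6 and 222 to 648, 648 and 552 (log2 change 1.46 ± 0.20 (SE), adjusted p = 0.000321), and its relative Nfia rose by 0.69, a change that turned to -0.095 and was not called after quantile normalization. Hopx, a homeobox gene of radial glia and astrocytes, rose by 1.58. The lower members were Hes5 and Hes1, effectors of the Notch receptor, and neither was called without P7 replicate 1, P7 replicate 2 or P14 replicate 1. Hes5 had 177, 224 and 223 and then 86.0, 91.5 and 156 (log2 change -0.94 ± 0.29 (SE), adjusted p = 0.0292), a call lost in 8 of 21 alternatives, 5 of which leave out 1 library. In the Notch list, 14 of 17 were tested, 1 was higher and 4 lower, a called share of 35.7% against 30.1% of all genes. The lower count was 1 without P7 replicate 1 or without P7 replicate 2 and 2 without P14 replicate 1. The ligand Dll1 was 90.0, 65.7 and 9.46 and then 2.15, 0 and 1.79, at least 10.2-fold lower by its P7 mean. Its P7 libraries were widely spread, with replicate 3 the lowest, and the call ended after quantile normalization.

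The thyroid hormone list had 3 of 6 tested genes (of 8) higher and none lower (3 and 1 after quantile normalization), and the 3 genes kept their call in each of 21 alternative analyses. Dio2, the deiodinase with which astrocytes activate thyroid hormone, went from 1976, 2242 and 2390.0 to 7331, 8942 and 10111 (log2 change 1.99 ± 0.17 (SE), adjusted p = 2.68e-05). Thrb, a receptor of the hormone, went from 79.1, 61.9 and 69.1 to 482, 520.4 and 412 (log2 change 2.73 ± 0.26 (SE), adjusted p = 3.60e-05). Klf9, one of its known target genes, went from 296, 282 and 284 to 890.0, 1369 and 1458 (log2 change 2.07 ± 0.23 (SE), adjusted p = 7.87e-05). Among FGF pathway genes 3 of 12 tested (of 13) were higher and 1 lower, a called share of 33.3% against 30.1% of all genes. None was lower after quantile normalization or without P7 replicate 1 or 2, and 2 were lower without P14 replicate 1. Fgf1 rose from 517, 464 and 448 to 1789.6, 1683 and 1557 (log2 change 1.81 ± 0.16 (SE), adjusted p = 2.78e-05) and the receptor Fgfr3 by 1.00. Hedgehog pathway genes split, 4 of 9 tested (of 10) higher and 3 lower, or 1 lower without P7 replicate 2 and 2 higher after quantile normalization. Gli3, a transcription factor of the pathway, rose by 0.81, not called after quantile normalization, and the coreceptor Cdon fell from 194, 136 and 60.6 to 12.9, 12.1 and 17.9 (log2 change -2.96 ± 0.37 (SE), adjusted p = 0.000178). Of 14 tested clock genes (of 16), 4 were higher and 1 lower, a called share of 35.7% against 30.1% of all genes. The lower call was lost with edgeR, after quantile normalization and without P7 replicate 1 or 2 or P14 replicate 1 or 3. Hlf, an output factor of the clock, rose from 302, 272 and 347 to 999, 1577 and 1209 (log2 change 2.02 ± 0.33 (SE), adjusted p = 0.000982) and Npas2 by 2.91. The hour of collection is not given in the sources used here.

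Astrocyte proteins that act on synapses changed in part. Of 17, all tested, 8 were higher and 2 lower, with 5 higher without P7 replicate 2 and 4 higher and 3 lower after quantile normalization. Sparcl1 (hevin), a secreted protein that promotes synapse formation, went from 14324, 13018 and 20063 to 48809.5, 45856 and 46740.3 (log2 change 1.60 ± 0.16 (SE), adjusted p = 4.47e-05). Sparc, its relative with an opposing role, rose as well, by 1.57. Gpc5, a glypican, went from 342, 272 and 302 to 1221, 1499.5 and 1637 (log2 change 2.24 ± 0.26 (SE), adjusted p = 0.000116), and Chrdl1, which promotes synapse maturation, rose by 0.62. The Chrdl1 call ended after quantile normalization and without P7 replicate 2. Mertk, a receptor with which astrocytes engulf synapses, went from 234, 230.2 and 195 to 769, 537 and 656 (log2 change 1.56 ± 0.18 (SE), adjusted p = 0.000124), and in the phagocytosis list 6 of 12 tested (of 13) were higher and 1 lower. Quantile normalization gave 3 and 2 there, and the lower call was lost with edgeR, with DESeq2 and without P7 replicate 1, 2 or 3 or P14 replicate 3. Nlgn2, a neuroligin, went from 218, 227 and 267 to 90.3, 131 and 71.7 (log2 change -1.31 ± 0.27 (SE), adjusted p = 0.00422). Thbs3, a thrombospondin, fell from 71.3, 138 and 95.6 to 37.6, 4.41 and 23.3 (log2 change -2.52 ± 0.60 (SE), adjusted p = 0.00895).

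Of 4 tested intermediate filament genes (of 7), 2 were lower, and of 14 tested matrix genes (of 17), 7 were lower and 2 higher (median -0.94), or 7 and 1 after quantile normalization. Nes, nestin, the intermediate filament of radial glia, went from 1467, 1188 and 1267 at P1 to 566, 626 and 708 at P7 and 106, 159.9 and 139.7 at P14 (log2 change -2.23 ± 0.17 (SE), adjusted p = 1.33e-05 for P14 against P7). Vim, vimentin, fell by 1.38 on the log2 scale. Tnc, tenascin C, fell from 3547, 6005 and 5255 to 1002, 961 and 731 (log2 change -2.44 ± 0.21 (SE), adjusted p = 2.34e-05), and Vcan, versican, from 3802, 4317 and 3504 to 922, 913 and 577 (log2 change -2.29 ± 0.17 (SE), adjusted p = 1.24e-05). Has2, a hyaluronan synthase, had 209, 407 and 470.2 at P7 and 0, 67.3 and 0 at P14, so its P14 level rests on replicate 2. The 2 higher members were Hapln1, which links hyaluronan to proteoglycans, from 2313, 1722 and 1860.1 to 5309, 5957 and 5495 (not called after quantile normalization), and Cspg5, at 0.91. Ncan, neurocan, was 37502, 41574 and 53447 and then 50309, 46077 and 45705 and was not called (adjusted p = 0.698), with overlapping ages.

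Imprinted genes of growth were lower in 6 of 12 tested (of 14) and higher in 1 (median -1.24). The higher call was lost in 11 of 21 alternatives, among them those without P7 replicate 1, 2 or 3 or P14 replicate 1 or 2. Zfp57, which keeps imprinted methylation, had 65.2, 76.3 and 104 at P7 and 0, 3.31 and 0 at P14, at least 15.2-fold lower. Meg3, a maternally expressed long noncoding RNA, had 478, 1379 and 3110.0 and then 9.67, 28.7 and 25.1 (log2 change -5.98 ± 0.62 (SE), adjusted p = 5.92e-05), with a wide spread among the P7 libraries. Grb10 and Mest, both imprinted in the embryo, had log2 changes of -1.85 and -1.90.

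Mitosis genes fell. Of 26 genes that act in mitosis, all tested, 15 were lower and none higher (median -1.84, or -1.75 with Cdk1 and Aurka at their bounds), against 17.7% lower among all genes. The lower count was 9 without P7 replicate 1, and 6 of the 7 members with a mean of at least 100 were called lower when such genes were tested alone. Mki67, the proliferation marker Ki-67, went from 1353, 1488 and 1509.5 at P1 and 1225, 1049 and 689 at P7 to 246, 241 and 176 (log2 change -2.13 ± 0.21 (SE), adjusted p = 4.00e-05). Ccna2, cyclin A2, went from 146, 121 and 115 to 25.8, 25.4 and 44.8 (adjusted p = 0.000326). Ccnb2, a mitotic cyclin, had 27.2, 35.0 and 42.6 and then 4.30, 2.21 and 3.58. Its kinase partner Cdk1 had 26.6, 28.2 and 15.1 and then 1.07, 2.21 and 0, at least 4.33-fold lower. Top2a, topoisomerase II alpha, was 679, 577 and 486 at P7 and 188, 673 and 186 at P14 and was not called (adjusted p = 0.0731); P14 replicate 2 lay within the P7 range. Of 24 S phase genes 6 were lower (25%, against 17.7% of all genes) and none higher. The lower count was 2 without P7 replicate 1 or without P7 replicate 2 and 10 without P14 replicate 1. After quantile normalization 1 was higher and 3 lower. Mcm6 of the replicative helicase fell by 2.48 on the log2 scale, while Pcna, the polymerase clamp, was 291, 233 and 202 and then 198, 221 and 202 (adjusted p = 0.397), with overlapping ages. In bulk libraries fewer cells of a type and less RNA per cell cannot be told apart.

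Promoters of the mitosis genes share letters that the gene list did not use. The cell cycle homology region (CHR, TTTGAA on either strand) is the element at which the DREAM and MuvB complexes hold mitosis genes down or turn them on, and it often lies near CCAAT boxes. RefSeq windows on GRCm38.p6, from 250 bases before to 50 after a start site, were matched by symbol for 22 of the 26 genes. A CHR was present for 16 of 22 (72.7%), and for 11 of the 13 matched genes called lower (84.6%). By the same count per gene it was present for 20.2% of all genes with a window and for 13.8% of the tested ones. CCAAT on either strand was found for 18 of 22 (81.8%), against 41.1% of all genes with a window and 43.3% of the tested ones. Windows are shown for 3 genes that fell, with CHR and CCAAT matches on either strand in capitals and the start site after base 250; Ccnb2 and Cdk1 form the kinase that drives entry into mitosis, and Mki67 is the marker given above. Each of the 3 holds 2 CHR and 3 CCAAT matches, which do not overlap. Ccnb2 lies at chr9:70421505-70421804, Cdk1 at chr10:69352863-69353162 and Mki67 at chr7:135716330-135716629, all on the minus strand, read 5′ to 3′ along the gene. A match describes the letters and is not a site shown to be bound.
Ccnb2: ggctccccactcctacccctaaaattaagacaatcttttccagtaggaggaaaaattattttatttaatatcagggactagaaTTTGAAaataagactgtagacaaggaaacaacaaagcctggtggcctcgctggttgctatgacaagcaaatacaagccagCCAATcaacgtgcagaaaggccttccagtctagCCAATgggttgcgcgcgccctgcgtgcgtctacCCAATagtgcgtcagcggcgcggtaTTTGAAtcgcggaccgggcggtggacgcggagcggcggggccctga
Cdk1: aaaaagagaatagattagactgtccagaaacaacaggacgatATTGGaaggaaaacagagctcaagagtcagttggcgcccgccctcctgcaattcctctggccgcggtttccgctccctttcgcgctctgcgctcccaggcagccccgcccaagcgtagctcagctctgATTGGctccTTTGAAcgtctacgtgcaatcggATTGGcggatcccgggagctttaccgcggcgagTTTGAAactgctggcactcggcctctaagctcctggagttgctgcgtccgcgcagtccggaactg
Mki67: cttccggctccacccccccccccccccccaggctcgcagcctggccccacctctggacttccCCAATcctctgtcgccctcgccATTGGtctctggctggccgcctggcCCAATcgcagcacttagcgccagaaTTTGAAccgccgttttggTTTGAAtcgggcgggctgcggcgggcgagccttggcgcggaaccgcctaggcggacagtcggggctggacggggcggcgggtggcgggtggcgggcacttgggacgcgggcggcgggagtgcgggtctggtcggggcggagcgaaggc

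The steepest group fall was in immediate early genes, which cells switch on within minutes of a stimulus, tissue dissociation included. Of 17 tested members (of 21), 16 were lower at P14 and none higher, with a median of -5.52, or -4.39 with the 6 genes at 3 or fewer reads per P14 library set to their bounds. Fos had 203, 289 and 270.3 at P1, 1369.5, 2111 and 1069 at P7 and 29.0, 4.41 and 7.17 at P14 (log2 change -7.05 ± 0.51 (SE), adjusted p = 1.10e-05). The P7 libraries were thus above both other ages, and P14 below both. Fosb had 213, 397 and 172 at P7 and no read at P14, at least 48.5-fold lower, and Egr2, a zinc finger factor, 63.4, 137 and 43.5 and no read, at least 15.1-fold lower. Egr1 went from 693, 1168 and 754 to 3779, 6021 and 2470.4 and 70.9, 33.1 and 91.4 (log2 change -5.97 ± 0.38 (SE), adjusted p = 6.88e-06 for P14 against P7). Dusp1, a phosphatase that ends MAP kinase signals, went from 443, 749 and 443 to 10.7, 27.6 and 43.0 (log2 change -4.43 ± 0.41 (SE), adjusted p = 3.45e-05), and Btg2 from 424, 643 and 190.2 to 9.67, 1.10 and 7.17. Among the genes called, the smallest falls were those of Klf6 and Jun. Jun went from 646, 842 and 572 to 364, 201 and 259.8 (log2 change -1.34 ± 0.22 (SE), adjusted p = 0.000972). Jund was not called (adjusted p = 0.103). For all genes given here by library the P7 and P14 values did not overlap. Leaving out P7 replicate 2, the highest library for Fos and Egr1, left 15 lower, and quantile normalization 16. A 2-fold or larger fall of all genes was called for 1728 of 11578, so the members stood beside many other falls.

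**Figure D4:**
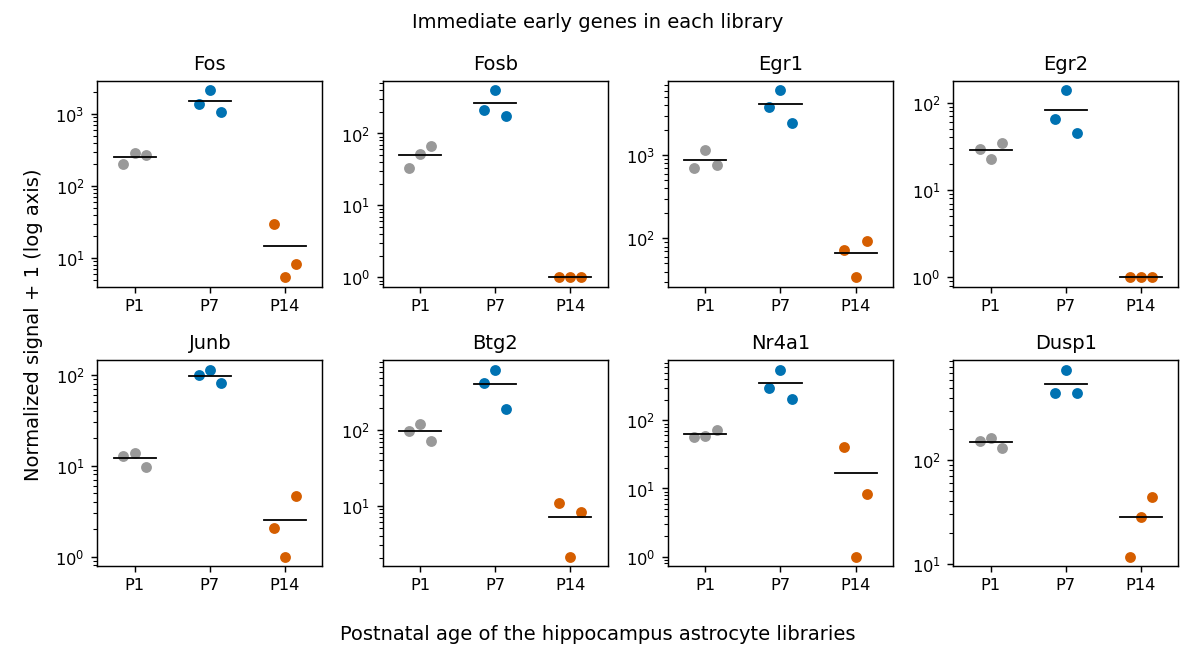
Normalized signal + 1 (log axis) of 8 immediate early genes in each hippocampus library at P1, P7 and P14, with 1 point per library and a bar at the mean of 3 libraries. In all 8 panels the P14 points lie below the P7 points, and Fosb and Egr2 had no read at P14.

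The CArG box, at which serum response factor acts on many such genes, was searched by its consensus on both strands in the windows of the 13 immediate early genes that matched. It was found for Egr2 and Zfp36 (15.4% of genes), against 1.54% of all tested genes with a window. The most upstream of 4 Egr2 windows, at chr10:67537316-67537615 on the plus strand, is shown because Egr2 was without reads at P14, with the CArG box in capitals, 72 bases before the start site.
Egr2: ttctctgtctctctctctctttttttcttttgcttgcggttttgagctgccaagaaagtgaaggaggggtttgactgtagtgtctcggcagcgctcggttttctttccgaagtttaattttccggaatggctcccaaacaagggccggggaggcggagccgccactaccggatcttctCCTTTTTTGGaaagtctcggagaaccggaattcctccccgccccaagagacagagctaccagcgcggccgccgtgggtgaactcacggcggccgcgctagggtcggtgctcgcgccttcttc

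Over all genes, the 12 largest rises among called genes of at least median level whose ages did not overlap included Ttr, Clic6, Mbp, Gjb6, Fam107a, Trpm3, Smim3, Apln, Acot11, Hif3a and Enpp2. Fam107a, a gene of radial glia and astrocytes, went from 390.1, 183 and 339 to 3712, 4310.0 and 4525 (log2 change 3.85 ± 0.31 (SE), adjusted p = 1.91e-05). Apln, the peptide apelin, went from 34.4, 28.2 and 24.6 to 219, 502 and 385 (log2 change 3.55 ± 0.54 (SE), adjusted p = 0.000619), and Hif3a, of the hypoxia-inducible factors, from 12.1, 35.0 and 62.4 to 342, 166 and 414. Acot11, an acyl-CoA thioesterase, rose by 3.33, Smim3 by 3.60, and Trpm3, an ion channel of choroid plexus and brain, by 3.70. Enpp2, autotaxin, also of choroid plexus and oligodendrocytes, went from 227, 276 and 316 to 3162, 3057 and 1508 (log2 change 3.17 ± 0.32 (SE), adjusted p = 4.74e-05). The 12 largest falls by the same rule were Fosb, Fos, Has2, Kcnq1ot1, Cd93, Btg2, Meg3, Egr1, Syt4, Itga4, Snhg11 and Zfp57. Kcnq1ot1, an imprinted long noncoding RNA, went from 653, 670.0 and 939 to 40.8, 3.31 and 5.37 (log2 change -6.15 ± 0.73 (SE), adjusted p = 0.000131). Cd93, an endothelial and myeloid surface protein, had 403, 180.2 and 204 and then 0, 15.4 and 1.79. Itga4, an integrin, had 146, 97.0 and 113 and then 0, 3.31 and 1.79, and Syt4, a synaptotagmin, was at least 21.5-fold lower. Snhg11, a noncoding RNA of neurons, had 156, 489.9 and 1137 at P7, a spread by fold among these 12 at that age like that of Meg3.

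By gain in mean signal, which grows with a gene's length and level, the first 5 called genes included Slc1a2, Sparcl1, Cpe and Gpm6b. Cpe, carboxypeptidase E, went from 7335, 5885 and 9191 to 29360.3, 29716 and 26783 (log2 change 1.96 ± 0.15 (SE), adjusted p = 1.32e-05), and Gpm6b, a membrane glycoprotein of glia and neurons, from 10772, 8554 and 14112 to 28637, 31463 and 28306, not called after quantile normalization. By loss they were Malat1, Fabp7, Tnc, Egr1 and Map1b. Malat1, a long RNA that stays in the nucleus, went from 51689, 82919 and 38385 to 4854, 11086 and 10086 (log2 change -2.75 ± 0.35 (SE), adjusted p = 0.000213). Map1b, a microtubule protein of growing processes, fell from 2752, 3385 and 5913 to 514, 1129 and 819 (log2 change -2.28 ± 0.30 (SE), adjusted p = 0.000240).

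Markers of other cell types also differed between the ages. Neuron markers were lower in 11 of 15 tested (of 16), and their summed signal was 3378 to 5597 at P7 and 2613 to 2899 at P14, with Slc32a1 at 0 in the P14 libraries. Slc17a6, the vesicular glutamate transporter 2, had 50.1, 46.9 and 50.1 and then 1.07, 0 and 0. Markers of immature granule neurons, the cells born in the dentate gyrus at this age, were lower in 9 of 10. Dcx, doublecortin, had 4222, 6191 and 4378 at P1, 818, 666 and 696 at P7 and 139.7, 351 and 93.2 at P14 (log2 change -2.12 ± 0.37 (SE), adjusted p = 0.00139). Of 10 mature oligodendrocyte markers, the 4 tested were higher. Mobp, with 0, 0 and 1.89 at P7, reached the minimum mean through P14 alone, so its direction was fixed in advance. Among the untested members, Ermn was higher in each P14 library, while Mal, Cldn11 and Mag overlapped between the ages. Mbp, myelin basic protein, went from 45.9, 16.9 and 25.5 to 560.0, 963 and 543 (log2 change 4.56 ± 0.38 (SE), adjusted p = 2.00e-05), while Mog and Opalin had no read at P14. Precursor markers were lower in 5 of 8 tested (of 10), or 62.5% against 17.7% of all genes, and in 2 without P7 replicate 1 or P7 replicate 2. Pdgfra, their growth factor receptor, went from 537, 389 and 324 to 24.7, 159.9 and 34.0.

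Vascular and choroid plexus genes went opposite ways. Endothelial markers were lower in 7 of 8 tested (of 11), 4 without P7 replicate 1, and their summed signal was 409 to 778 at P7 and 10.7 to 178 at P14. Kdr, the VEGF receptor, had 192, 100.1 and 108 at P7 and 0, 17.6 and 0 at P14, and Cldn5, of the tight junction, 37.4, 30.7 and 27.4 and no read there. Cldn5, with 4.27, 2.67 and 0 at P1, reached the minimum mean through P7 alone, so its direction was fixed in advance. Esam and Ly6c1 also had no read at P14. The P14 reads that remained came mostly from replicate 2. Mural and fibroblast markers were lower in 4 of 9 tested (of 13), or 44.4% against 17.7% of all genes, among them Rgs5, a pericyte gene (log2 change -2.58 ± 0.30 (SE), adjusted p = 0.000113). All 7 tested of 12 choroid plexus markers were higher, 4 of them without P7 replicate 2. The minimum mean was taken over all ages, so a gene could be tested through its P7 or its P14 signal alone. Kl and Clic6, with P7 means of 6.24 and 5.83, were tested through P14, and their direction was then fixed in advance. Of the untested members, Kcnj13 was lower in each P14 library, Folr1 and Kcne2 were higher, and Aqp1 and Calml4 overlapped between the ages. Ttr, the carrier of thyroid hormone secreted by the choroid plexus, had 7.85, 141 and 926 at P7 and 7716, 6649 and 3855 at P14 (log2 change 5.79 ± 1.24 (SE), adjusted p = 0.00490), and P7 replicate 3 stood above the other P7 libraries. Kl and Clic6 rose by 4.10 and 5.53. Microglia markers were lower in 1 of 10 tested (of 14), or 10% against 17.7% of all genes. That gene was Cx3cr1, a call lost in 10 of 20 alternatives. The summed microglia signals were 376 to 1693 at P7 and 318 to 833 at P14. Ependymal markers were lower in 2 of 4 tested (of 12), or 50% against 17.7% of all genes, and in 1 without P7 replicate 1. No blood gene reached the minimum mean. The part of these cell types in the changes of astrocyte genes was not tested. The astrocyte markers' summed signal was 87935 to 124720 at P7 and 480819 to 517459 at P14. Slc1a2 alone made up most of each of these sums, as Ttr did for choroid plexus markers at P14.

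**Figure D5:**
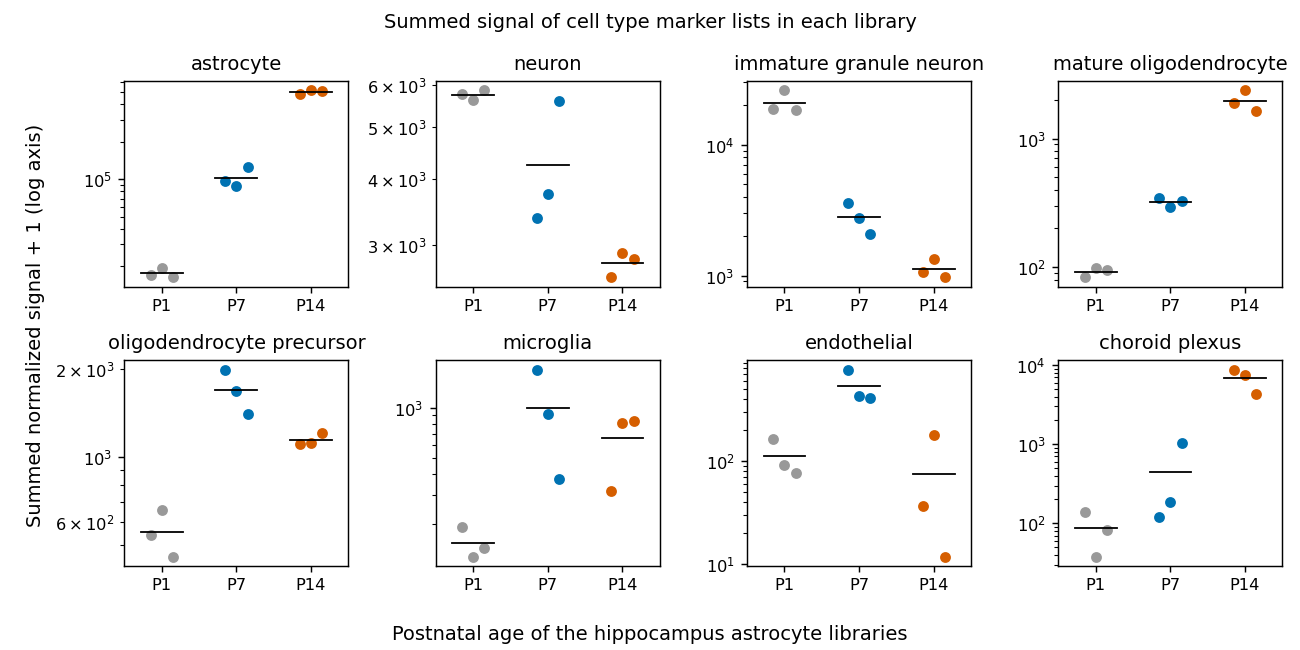
Summed normalized signal + 1 (log axis) of the marker lists of 8 cell types in each hippocampus library, with 1 point per library and a bar at the mean of 3 libraries. From P7 to P14 the sums of astrocyte, mature oligodendrocyte and choroid plexus markers lie higher and those of neurons, immature granule neurons, oligodendrocyte precursors and endothelial cells lower, without overlap, while microglia overlap. Slc1a2 makes up most of the astrocyte sum at P7 and P14, and Ttr most of the choroid plexus sum at P14.

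Libraries were not matched for sex. Y-linked RNA was present in P7 replicate 2 and P14 replicates 1 and 2, and fitting it as a covariate gave 3077 called genes.

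The same interval was then compared with the change in cortex (3 libraries at P7 and 4 at P14) and olfactory bulb (3 and 3), after joint TMM scaling of recovered reads, with limma on the difference between the changes. Of 12720 genes, 898 differed from cortex (7.06%), 370 with a higher change in hippocampus (2.91%) and 528 with a lower one (4.15%). Quantile normalization gave 304 and 187 and the deposited scaling 600 and 397, so the balance of the split depends on the scaling. Against olfactory bulb 2388 differed (18.8%), 789 higher (6.20%) and 1599 lower (12.6%). Gabbr1 rose by 0.92 in hippocampus and 0.93 in cortex (difference -0.01 ± 0.17 SE, adjusted p = 0.968), and changed by 0.08 in olfactory bulb (difference 0.84 ± 0.17, adjusted p = 0.00110, or 0.43 and not called after quantile normalization). For Gabbr2 the changes were 1.07, 1.01 and 2.70, and the hippocampus change was lower than that of olfactory bulb (difference -1.63 ± 0.37, adjusted p = 0.00280).

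The fall of immediate early genes was larger in hippocampus. Of 19 tested in the joint fit, 11 had a lower change than in cortex and none a higher one. Against olfactory bulb 13 had a lower change and 1 a higher one. The medians were -5.34 in hippocampus, -1.54 in cortex and -1.38 in olfactory bulb. Fos changed by -7.06, -3.05 and -3.25 (difference from cortex -4.01 ± 0.96, adjusted p = 0.0116). Egr1 changed by -5.92, -1.96 and -2.54 (difference from cortex -3.96 ± 0.58, adjusted p = 0.000231). Endothelial markers had medians of -4.75, -0.67 and 2.21, and 4 and 9 of 11 were lower than in cortex and olfactory bulb. Against cortex the 4 became 0 after quantile normalization and 2 without hippocampus P7 replicate 1. Cldn5 changed by -0.07 in cortex and 2.40 in olfactory bulb, with no read left in hippocampus at P14. Choroid plexus markers had medians of 3.53, -0.92 and -0.45, and 4 and 5 of 8 were higher, with edgeR 5 and 2. Ttr itself did not pass (difference from cortex 6.33 ± 2.34, adjusted p = 0.0990).

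For astrocyte genes the contrast lay with olfactory bulb. Of 22 lineage transcription factors 15 had a lower change, sign included, in hippocampus than in olfactory bulb and 2 a higher one than in cortex. The medians were 0.47 in hippocampus, 0.29 in cortex and 1.66 in olfactory bulb. Of 16 astrocyte markers 12 had a lower change in hippocampus than in olfactory bulb, where the median was 3.17 against 1.73 in hippocampus and 1.55 in cortex. Over all genes 12.6% had a lower change in hippocampus than in olfactory bulb. Immature granule neuron markers had medians of -1.77 in hippocampus, -1.77 in cortex and -4.45 in olfactory bulb. The part of cell make-up in the contrast of astrocyte genes was not tested. Mitosis genes had medians of -1.85, -2.49 and 0.03, and 8 of 26 were lower in hippocampus than in olfactory bulb, 4 without hippocampus P7 replicate 1 and 13 without P14 replicate 2. Cholesterol synthesis genes had medians of 0.66, 0.22 and 0.46, and 4 of 19 were higher than in cortex, against 2.91% of all genes.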

How the data were processed

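RNA-seq libraries from 500 pg to 1 ng of total RNA were made with a Trio RNA-seq kit, per the labels' protocols. The deposited signal is a normalized value per gene: its values are whole reads divided by 1 factor per library (100% of values whole, tolerance 0.01), so the authors' reads could be recovered. The submitters' processing notes name STAR 2.5.0a, DESeq2 1.20.0 and mm10, without roles. The table holds 24421 symbols, 27 of them restored from dates written by a spreadsheet. No column was left unmapped, and the P28 tables were not used here.

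Log2(value + 1) was tested with limma 3.58.1 (R 4.3.3, trend, Benjamini-Hochberg) in the 9 hippocampus libraries, on 11578 genes with a mean of at least 10. Regional differences used limma on reads of 28 libraries after joint TMM scaling with edgeR 4.0.16. Alternatives were edgeR and DESeq2 1.42.0 on recovered reads, pseudocounts of 0.1 and 8, no filter or a minimum of 100, other scalings, fits without the trend or with array weights, a 2-fold requirement, P7 and P14 alone, and leaving out each library. A further 2 were chosen after seeing the data: edgeR after thinning all libraries to 1 depth, leaving out the ribosomal RNA gene Rn45s, and Y-linked RNA as a covariate. Rn45s took 20.2% to 28.9% of reads. Simulated counts over 11529 genes, with the same dispersion for every gene and library, gave back 11% of 2-fold and 90% of 4-fold changes. Of 111 calls, 10 were among unchanged genes. The real libraries had a biological coefficient of variation of 19.8% at P7 and 54.4% at P14, a difference that the simulation left out. Its rates therefore need not hold for this comparison. A fold against an age with 3 or fewer reads in every library is a bound at 3 reads per library. Floors cover counting error only.

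Genes were named as list members, as the 12 largest rises and falls among called genes of at least median level without overlap, as the 5 largest gains and losses in mean, and as the 5 largest regional differences in each direction. Some named genes are not reported here. The members and lists were chosen with earlier results of these data known. Replicates are numbered in accession order, and 2 P14 library names carry a suffix that the labels do not explain.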

Additional observations from a re-analysis of the deposited data

Results flagged for a closer look

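Several genes changed from P7 to P14 differently in hippocampus than in another region, by limma on the difference of the log2 changes, which are given below as hippocampus minus the other region. Against cortex, the most positive differences among genes called both here and in hippocampus, with at least median level, were Clic6 at 7.16, a choroid plexus chloride channel gene, B3gnt5 at 4.29, Vat1l at 4.27, Socs2, a suppressor of cytokine signals, at 3.50, and Enpp2 at 3.32. The most negative by the same rule were Fosb at -7.01, Itga4 at -4.86, Nr4a2 at -4.77, Cd93 at -4.52 and Btg2 at -4.09. Picked outside this ranking were Cldn5 at -5.66, which is below the median level, Fos at -4.01 and Egr1 at -3.96. Fosb and Cldn5 had no read in the hippocampus P14 libraries, so their fitted values depend on the pseudocount and are no bound. The difference of Cd93 from cortex lost its call in 9 of 11 alternatives, namely edgeR, quantile normalization, the deposited scaling, a pseudocount of 8 and the analyses without hippocampus P7 replicate 1, 2 or 3 or P14 replicate 1 or 3. That of Cldn5 lost its call after quantile normalization.

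Against olfactory bulb, the positive differences were Clic6 at 6.13, Neurod1, a neuronal transcription factor, at 6.004, Nrn1 at 5.46, Deptor, an mTOR inhibitor, at 4.71, and Igfbpl1 at 4.44. Neurod1 changed by -1.34 in hippocampus and -7.35 in olfactory bulb, so its positive difference is a smaller fall. The most negative by that rule were Cd93 at -8.83, Itga4 at -6.75, Fn1, fibronectin, at -5.19, Fosb at -5.12 and Klf4 at -5.09. Again picked outside the ranking were Cldn5 at -8.13, Fos at -3.81 and Egr1 at -3.38. Cd93 changed by 2.43 in olfactory bulb and Cldn5 by 2.40. The GABA-B receptor genes differed from olfactory bulb in opposite directions, Gabbr1 by 0.84 and Gabbr2 by -1.63, but the Gabbr1 difference was 0.43 and not called after quantile normalization. Groups of 3 libraries were too small for an outlier check.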

How the results depend on the processing

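No paired analysis was possible because the labels give no replicate numbers and replicates are numbered in accession order only. Of 161 called genes followed one by one, 122 kept their call in each of 21 alternatives in which they were tested. Quantile normalization turned Slc1a3 to -0.040, Aqp4 to -0.083 and Nfia to -0.095. The count of called genes (3489) was 2067 at a minimum mean of 100, where fewer genes were tested, and 2007 to 4146 over analyses without 1 library each, lowest without P7 replicate 2 and highest without P14 replicate 2. Genes higher at P14 (1443) numbered 680 at a 2-fold requirement and 850 to 1546 without 1 library. Genes lower at P14 (2046) numbered 3395 with no filter, 843 at a minimum mean of 100, 1177 in a fit of P7 and P14 alone and 1157 to 2600 without 1 library. The count against cortex (898) was 570 at a minimum mean of 100, 491 after quantile normalization and 518 to 1591 without 1 hippocampus library, and that against olfactory bulb (2388) was 1920 to 2858 likewise; cortex and olfactory bulb libraries were not left out. The small difference from cortex changed sign for Gabbr1 with the deposited scaling (0.11) and ranged from -0.10 to 0.12 without 1 hippocampus library, and for Gabbr2 with edgeR (-0.053) and from -0.32 to 0.29. Neither was called. For settings that turned a sign the cause was not tested. P14 libraries were more variable than P7 libraries and held fewer genes with a read. Their read totals overlapped, at 2539583 to 4248087 against 4002881 to 5542610. At P14 changes of low genes are therefore the least precise.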

Other observations

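Values of some long noncoding RNAs, picked after their values were seen, are given without any statement on the group. Neat1, which builds nuclear paraspeckles, went from 264, 475 and 144 to 6.45, 18.7 and 39.4 (log2 change -3.86). Miat went from 281, 309.7 and 298 to 6.45, 7.72 and 28.7 (-4.58), and Rian, of the same imprinted cluster as Meg3, from 124, 254 and 487 to 37.6, 26.5 and 44.8 (-2.77). Others that fell were Airn (-3.29), Ftx (-2.82), Dleu2 (-3.90), Rmst (-2.78) and Gas5 (-1.28). Tug1 (0.27) and Jpx (-0.19) were not called. Malat1, Meg3, Kcnq1ot1 and Snhg11 are given in the report. The share of unspliced or nuclear RNA in each library was not measured here, and its part in these values was not tested.

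Microglia genes were spread most among P7 libraries, with summed signals of 1693, 914 and 376 in replicates 1, 2 and 3. Markers of mural cells and fibroblasts summed to 955 to 1321 at P7 and 172 to 681 at P14. Of 10 interferon response genes tested (of 18), 2 were higher and 2 lower, and of 7 heat shock genes (of 10), 1 was higher and 1 lower. The called shares were 40% and 28.6%, against 30.1% of all genes. Quantile normalization gave 0 higher and 4 lower heat shock genes, and no interferon gene was higher with array weights or without P7 replicate 2 or 3.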
